A study of Mus musculus with 58 samples.

Results

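The NMDA receptor subunit genes were taken as the CpGs whose gene name begins with Grin followed by a digit. This gave 7 of the 382 CpGs on the array, 1 for each of Grin1, Grin2a, Grin2b, Grin2c, Grin2d, Grin3a and Grin3b. The names carry a number (Grin1-870, Grin2a-933, Grin2b-484, Grin2c-589, Grin2d-189, Grin3a-597 and Grin3b-819) that the sources used here do not explain. The position of each assayed CpG relative to its gene is therefore not stated.

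Methylation was read in bisulphite-converted genomic DNA of mouse brain on a custom Illumina GoldenGate bead array. Methylation is given as beta, which is 0 where only the unmethylated form of a CpG gave signal and 1 where only the methylated form did. C57BL/6 mice gave 53 samples from 11 regions: 6 samples each of caudate-putamen (CPU), the granular cell layer (GCL) and substantia nigra (SN), 5 each of basolateral amygdala (BLA), dentate gyrus (DG), globus pallidus (GP), hypothalamus (HYP) and thalamus (TH), 4 each of CA3 and Purkinje cells (PC), and 2 of frontal cortex from mice labelled WT (FC_WT). All of these mice but those of FC_WT are labelled healthy. Mice labelled 3TG, on a C57BL/6-129 background, gave 3 further frontal cortex samples (FC_3TG) and 1 sample of CA1. The label 3TG is not explained there, no treatment or age is given, and the labels do not say which brain structure the granular cell layer came from. Nor is it said that samples of 1 group are separate animals, and every p-value below rests on the spread between samples, which may be technical. The number of arrays limits the precision.

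NMDA receptors are glutamate-gated cation channels of excitatory synapses, built from an obligatory GluN1 subunit, encoded by Grin1, together with GluN2 or GluN3 subunits. The GluN2 subunits, encoded by Grin2a to Grin2d, bind glutamate and set how fast the channel closes and how strongly magnesium blocks it, while GluN1 and the GluN3 subunits, encoded by Grin3a and Grin3b, bind glycine. In the adult rodent brain GluN2A and GluN2B are the main partners of GluN1 in the forebrain, GluN2C is best known from cerebellar granule cells, and GluN2D from the diencephalon and midbrain. Methylated cytosines in mammals lie mostly in CpG dinucleotides, and promoters dense in CpGs are usually little methylated.

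Promoter sequence was available for 4 of the 7 genes, Grin1, Grin2c, Grin2d and Grin3b, in a RefSeq table of build GRCm38.p6, as 250 bases before to 50 after the gene's start. Those of Grin2c, whose CpG had region means that differed widely, and of Grin1, whose CpG had the lowest mean beta of the family, are shown 5′ to 3′ on the gene's strand with every CG in capitals. The Grin2c window lies at chr11:115267194-115267493 and the Grin1 window at chr2:25319138-25319437, both on the minus strand. It was not known whether the assayed CpG lies within either window.
Grin2c: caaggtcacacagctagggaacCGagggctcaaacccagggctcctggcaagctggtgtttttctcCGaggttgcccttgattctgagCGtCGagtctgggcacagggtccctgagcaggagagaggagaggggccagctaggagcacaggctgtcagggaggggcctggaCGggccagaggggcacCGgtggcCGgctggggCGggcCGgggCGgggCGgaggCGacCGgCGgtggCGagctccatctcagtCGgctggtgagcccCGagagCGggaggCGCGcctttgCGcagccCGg
Grin1: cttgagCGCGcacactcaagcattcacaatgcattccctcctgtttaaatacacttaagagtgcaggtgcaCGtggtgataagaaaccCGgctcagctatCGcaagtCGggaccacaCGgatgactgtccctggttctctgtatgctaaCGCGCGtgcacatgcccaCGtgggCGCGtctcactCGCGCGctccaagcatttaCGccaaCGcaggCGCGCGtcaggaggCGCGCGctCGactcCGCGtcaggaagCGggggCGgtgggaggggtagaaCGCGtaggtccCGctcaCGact
The Grin2c window held 22 CpGs and was 70.0% G or C, and the Grin1 window held 33 CpGs and was 60.7% G or C. The letters GGGCGG or their complement CCGCCC, the core of the Sp1 recognition sequence, were found 3 times in the Grin2c window and 1 time in the Grin1 window, with both strands searched. At least 1 such match was present in 35.7% of the 32851 promoters of the table. The Grin2d window held 12 CpGs and the Grin3b window 3. Over the 284 array CpGs whose gene had a window, the median was 16 CpGs, with quartiles of 8 and 26.25. Array CpGs whose gene had at least 20 CpGs in the window (n = 123) had a median mean beta of 0.0761, against 0.505 where there were under 10 (n = 90). Spearman's rho between CpG number and mean beta was -0.397 across these CpGs, as a description over genes. Grin2c, with 22 CpGs in its window and a mean beta of 0.381, lay well above the median of the densest set, and Grin3b, with 3 CpGs and a mean beta of 0.0617, well below that of the sparsest.

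Mean beta per array ran from 0.249 to 0.289 over the 57 samples, and the first quartile of beta from 0.0456 to 0.0995. Some arrays stood apart from their group. In PC, the arrays of samples F2 and M3 had first quartiles of 0.0759 and 0.0995, against 0.0555 and 0.0543 for F1 and F4, and each correlated best with a GCL sample. GP M3 also correlated best with a GCL sample (r = 0.994), and its correlation with the GCL mean (0.989) exceeded that with the mean of the other GP samples (0.978). Nearness to a region mean is no strict check of a label here, since only 25 of the 53 samples correlated best with the mean of their own region. In DG, the titles of samples F7, F8 and F9 begin with WT, as do those of FC_WT, whereas F3 and M2 are titled by region and code. The main results that rest on these samples are given with and without them. The CpGs of cell type markers are genomic sites and not transcripts, so the labelled tissues could not be checked against expressed markers.

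Regional differences were tested for each CpG with limma's moderated F-test over the 11 regions on log2(beta / (1 - beta)), with Benjamini-Hochberg adjustment over the 382 CpGs and a threshold of 0.05. By this test 4 of the 7 subunit CpGs were called, Grin2a, Grin2b, Grin2c and Grin2d, against 44.5% of all CpGs, so the count itself is close to the background. All 4 GluN2 genes were called (adjusted p = 1.54e-15 for Grin2c, 2.26e-10 for Grin2a, 0.00228 for Grin2d and 0.0321 for Grin2b), while Grin1, Grin3a and Grin3b did not pass. The sizes differed more than the count. Region means of Grin2c spanned 0.380 and those of Grin2a 0.340, ranks 4 and 10 of the 382 CpGs, whereas Grin2d spanned 0.0792, Grin2b 0.0637, Grin3a 0.0252, Grin1 0.0120 and Grin3b 0.0105. The median span was 0.0637 for the family and 0.0496 for all CpGs.

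The Grin2c CpG was lowest in GCL and PC and highest in HYP, BLA, CPU and SN. In GCL it read 0.115 to 0.195 with a median of 0.144 and a mean of 0.150 ± 0.0310 (SD, n = 6). In PC the values were 0.115 in F1, 0.249 in F2, 0.110 in F4 and 0.250 in M3. All GCL and PC samples lay below every other sample of the series, which ran from 0.255 to 0.618. FC_WT read 0.295 and 0.310, CA3 ran from 0.283 to 0.350, and DG read 0.387 in F3, 0.356 in M2, 0.297 in F7, 0.322 in F8 and 0.271 in F9. GP read 0.404 in F4, 0.395 in F1, 0.422 in F2, 0.255 in M3 and 0.442 in M4. TH ran from 0.351 to 0.425 with a mean of 0.393 ± 0.0293 (SD, n = 5). GP M3 was the lowest sample of these 5 groups, next to the upper PC values, and TH lay above every FC_WT and CA3 sample. The highest values were those of SN at 0.449 to 0.543 with a median of 0.498, CPU at 0.412 to 0.610 with a median of 0.496, BLA at 0.426 to 0.548 with a median of 0.532, and HYP at 0.413 to 0.618 with a median of 0.530.

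Against the mean of the other 10 regions, Grin2c was lower in GCL by -1.85 ± 0.16 on the log2(beta / (1 - beta)) scale (SE, limma adjusted p = 2.84e-13) and in PC by -1.59 ± 0.20 (adjusted p = 7.57e-09). Without PC F2 and M3 the difference in PC rested on F1 and F4 alone and was -2.28 (adjusted p = 2.77e-10). The samples left out held the higher Grin2c values of PC, so this could only widen the difference. It was higher in HYP by 1.12 ± 0.18 (adjusted p = 1.9e-05), in BLA by 0.97 ± 0.18 (adjusted p = 0.000204), in CPU by 0.93 ± 0.16 (adjusted p = 2.49e-05) and in SN by 0.87 ± 0.16 (adjusted p = 0.000117). The remaining 5 regions were not called for Grin2c. Of the 55 pairs of regions, with p-values adjusted jointly over all CpGs and pairs, 35 differed at Grin2c. For the family 85 of 385 comparisons (22.1%) were called, beside 14% for all CpGs and pairs.

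At Grin2c GCL and PC differed from each of the other 9 regions in 18 of 18 pairs (limma adjusted p from 1.26e-12 to 0.0179), also 18 of 18 without PC F2 and M3 or without GP M3, and their own difference had an adjusted p of 0.632. PC F2 and M3 were the higher PC values and GP M3 the lowest GP value. Leaving them out could only widen the differences from the other 9 regions. The other regions were not cleanly separated by the pairs. BLA, CPU, HYP and SN differed from CA3, DG and FC_WT in 12 of 12 pairs (9 of 12 without DG F7 to F9), from TH in 1 of 4 (HYP, adjusted p = 0.015) and from one another in 0 of 6 (adjusted p from 0.626 to 0.959). CA3, DG, FC_WT, GP and TH gave 0 limma calls among their 10 pairs (adjusted p from 0.267 to 0.989). In the order of the means, GCL, PC, FC_WT, DG, CA3, GP, TH, SN, CPU, BLA, HYP, the only neighbours called were PC and FC_WT (adjusted p = 0.0179), and the step from TH to SN had an adjusted p of 0.0882. Without GP M3 the GP mean rose from 0.384 to 0.416 ± 0.0209 (SD, n = 4), and called pairs with GP went from 6 of 10 to 2 of 10: those with GCL and PC were called, and those with BLA, CPU, HYP and SN were not (adjusted p from 0.0525 to 0.235).

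**Figure D1:**
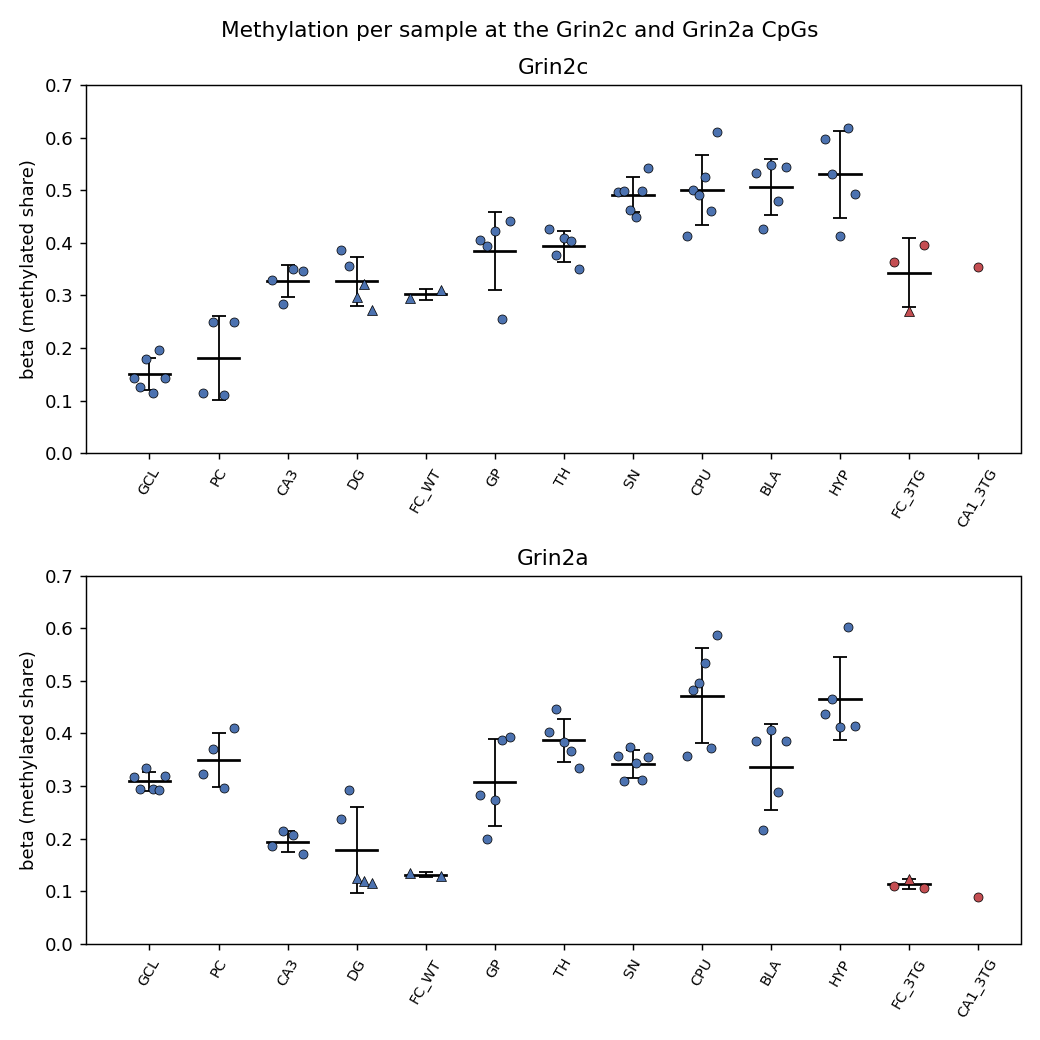
Beta values (vertical axis, 0 to 1 scale) of every sample at the Grin2c and Grin2a CpGs by region, with 1 point per sample, bars at the mean and error bars of 1 SD. Triangles are samples whose titles begin with WT or 3TG and red marks mice labelled 3TG. At Grin2c the GCL and PC samples (0.110 to 0.250) lie below all others, and at Grin2a the FC_WT, FC_3TG and CA1 samples and DG F7 to F9 form the lowest points.

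Grin2a followed another order. It was lowest in FC_WT, DG and CA3 and highest in CPU and HYP. FC_WT read 0.135 and 0.128. DG read 0.237 in F3, 0.292 in M2, 0.126 in F7, 0.119 in F8 and 0.116 in F9, and CA3 read 0.187 in F3, 0.215 in F4, 0.207 in M1 and 0.170 in M4. These hippocampal and cortical samples overlapped with the lowest samples of GP (0.199 in F1) and BLA (0.216 in F4). GCL, low at Grin2c, held the middle here with 0.293 to 0.335, a median of 0.306 and a mean of 0.309 ± 0.0173 (SD, n = 6), and PC read 0.323 in F1, 0.370 in F2, 0.296 in F4 and 0.410 in M3. GP read 0.282, 0.199 and 0.274 in F4, F1 and F2 and 0.388 and 0.394 in M3 and M4. BLA ran from 0.216 to 0.406 with a median of 0.386, SN from 0.311 to 0.374 with a median of 0.350 and TH from 0.335 to 0.446 with a median of 0.384. At the top, CPU ran from 0.357 to 0.588 with a median of 0.490, and HYP read 0.437 in F1, 0.465 in F2, 0.413 in F4, 0.602 in M1 and 0.414 in M3. CPU overlapped with TH, BLA, PC, SN and GP, and HYP with TH.

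Against the mean of the other regions, Grin2a was lower in FC_WT by -1.66 ± 0.31 on the log2 scale (SE, limma adjusted p = 4.77e-05), in DG by -1.21 ± 0.20 (adjusted p = 1.01e-05) and in CA3 by -0.93 ± 0.22 (adjusted p = 0.0129). It was higher in CPU by 1.15 ± 0.19 (adjusted p = 5.76e-06) and in HYP by 1.12 ± 0.20 (adjusted p = 4.36e-05). In TH the difference was 0.60 ± 0.20, with an adjusted p of 0.0595. The CA3 call was lost without F3 (adjusted p = 0.139), M1 (0.0625) or M4 (0.114). CA3, DG and FC_WT differed from the other 8 regions in 24 of 24 pairs (adjusted p from 9.68e-09 to 0.0373) and from one another in 0 of 3 (0.278 to 0.665), and CPU and HYP differed from the other 9 in 14 of 18 pairs. Without DG F7 to F9 the 24 pairs gave 18 calls: CA3 and FC_WT differed from the other 8 regions in 16 of 16 and DG in 2 of 8. In the order FC_WT, DG, CA3, GP, GCL, BLA, SN, PC, TH, HYP, CPU, the only neighbours called were CA3 and GP (adjusted p = 0.0373), a call that was lost without GP M3 (0.116).

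The low Grin2a values coincided with a feature of the labels. The 9 samples that carry the genotype 3TG or a title beginning with WT (FC_WT, FC_3TG, CA1 and DG F7 to F9) read 0.0887 to 0.135, and the other 48 samples read 0.170 to 0.602, without overlap. Within DG both kinds of title occurred: F7, F8 and F9 had a mean of 0.120 and F3 and M2 a mean of 0.265. Without F7 to F9 the DG difference was -0.38 and no longer called (limma adjusted p = 0.65). Frontal cortex was sampled under titles of this kind or as 3TG, so the region and the labelling of its samples cannot be told apart for FC_WT. At Grin2c the 9 samples (0.270 to 0.396) lay within the range of the other 48.

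**Figure D2:**
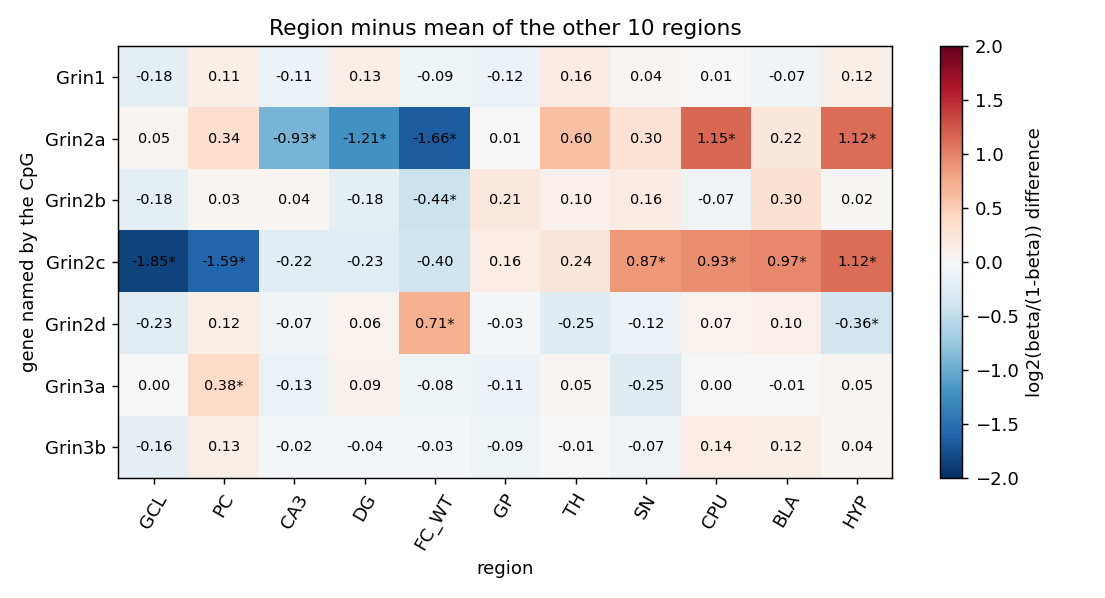
Difference of each region from the mean of the other 10 regions on the log2(beta / (1 - beta)) scale (colour and printed value) for the 7 subunit CpGs (rows) and 11 regions (columns). Asterisks mark an adjusted p under 0.05. The widest cells are in the Grin2c row, at -1.85 in GCL, and in the Grin2a row, at -1.66 in FC_WT.

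Across the 77 combinations of subunit CpG and region, 15 were called. GCL had 1 call of 7 (22.3% of all CpGs), PC had 2 (46.6%), DG had 1 (24.1%), CA3 had 1 (2.09%), SN had 1 (14.9%) and BLA had 1 (6.81%). HYP had 3 of 7, Grin2a, Grin2c and Grin2d, beside 9.95% of all CpGs, and CPU had 2 of 7, Grin2a and Grin2c, also beside 9.95%. FC_WT had 3 of 7, Grin2a, Grin2b and Grin2d, beside 31.7%. In TH limma called 0 of 7 (2 at an unadjusted p under 0.05), beside 7.07%, and in GP 0 of 7 (0 unadjusted), beside 0%. HYP and CPU were called above the other regions at both Grin2a and Grin2c, and no region was called below them at both.

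Grin2a and Grin2c were correlated at r = 0.493 over the 11 region means and at r = 0.474 over the 53 samples after subtracting region means. Over all 72771 pairs of CpGs the median was 0.124 for region means, with an upper quartile of 0.489, and 0.116 within regions, with an upper quartile of 0.376. Within regions the highest correlations among the subunit CpGs were those of Grin1 with Grin2b at r = 0.605, Grin2b with Grin3a at 0.596 and Grin1 with Grin3b at 0.523. Grin2d correlated at 0.301 with Grin3a, 0.225 with Grin2b, 0.174 with Grin1, 0.113 with Grin2c, 0.103 with Grin3b and -0.351 with Grin2a. These correlations are descriptions, and the points of each share their array.

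**Figure D3:**
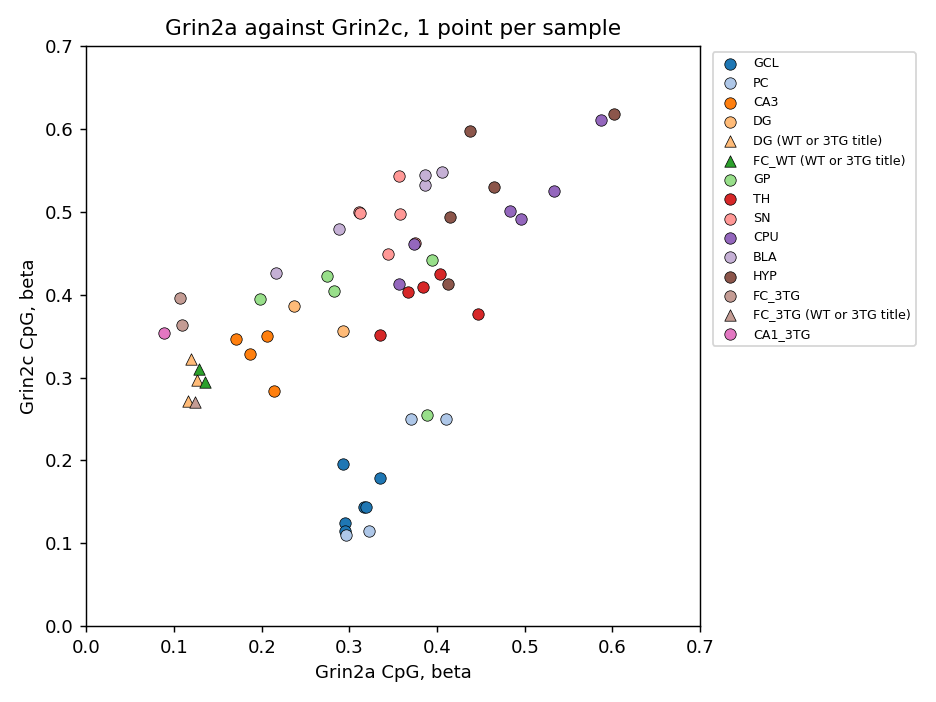
Beta at the Grin2a CpG (horizontal axis) against beta at the Grin2c CpG (vertical axis), 1 point per sample, coloured by group. Triangles are samples whose titles begin with WT or 3TG. GCL and PC lie low on the vertical axis at Grin2a values of 0.293 to 0.410, and FC_WT and DG F7 to F9 lie at the left at Grin2c values of 0.271 to 0.322.

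Grin2d and Grin2b showed narrower differences, in which FC_WT stood at opposite ends. Grin2d read 0.170 and 0.190 in FC_WT. Its HYP values were 0.120 in F1, 0.0984 in F2, 0.0898 in F4, 0.0859 in M1 and 0.110 in M3, all below both FC_WT samples. The remaining region means ran from 0.107 in TH to 0.132 in PC. Grin2d was higher in FC_WT by 0.71 ± 0.17 on the log2 scale (SE, limma adjusted p = 0.000808) and lower in HYP by -0.36 ± 0.11 (adjusted p = 0.0186). Of its 55 pairs 11 were called, and 9 of these were FC_WT against all regions but PC (adjusted p = 0.0606). The remaining calls were HYP against BLA and against PC, the latter not called without PC F2 and M3 (adjusted p = 0.613). In DG, F7 to F9 ran from 0.125 to 0.184 and F3 and M2 read 0.0935 and 0.109, and over the series the 9 samples labelled 3TG or titled WT ran from 0.125 to 0.202 against 0.0859 to 0.153 for the other 48. Without FC_WT the F-test of Grin2d had an adjusted p of 0.0938 and the HYP call was lost (0.0877). The HYP call was also lost without HYP F2 (0.0594), F4 (0.0686) or M1 (0.149), and that of FC_WT without its replicate 3 (0.0581).

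Grin2b read 0.132 and 0.130 in FC_WT. In BLA it read 0.170 in F1, 0.229 in F4, 0.187 in M1, 0.209 in M3 and 0.178 in M4, all above both FC_WT samples. The remaining means ran from 0.151 in DG to 0.185 in GP, and their samples overlapped. By the F-test Grin2b had an adjusted p of 0.0321. FC_WT was lower by -0.44 ± 0.16 on the log2 scale (SE, limma adjusted p = 0.0361), a call that was lost without either FC_WT sample (0.204 and 0.223). Of the pairs 5 of 55 were called: BLA against DG, FC_WT and GCL, and FC_WT against GP and SN. The median difference of all CpGs in FC_WT was -0.19, and relative to it Grin2b stood at -0.24, Grin2a at -1.46 and Grin2d at 0.91. The F-test call of Grin2b was lost without FC_WT (adjusted p = 0.111), without either of its samples (0.0732 and 0.0801), without BLA F4 (0.0616) or M3 (0.0589) and after quantile normalization (0.289), and its pair of BLA and FC_WT without either FC_WT sample (0.0659 and 0.0843).

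Grin1, Grin3a and Grin3b were little methylated in every region. Grin1, whose product every NMDA receptor contains, ran from 0.0362 to 0.0988 over the 53 samples, with means of 0.0483 in GCL to 0.0603 in HYP (limma F-test, adjusted p = 0.823). Its within-region SD of 0.0119 was as large as the span of its region means, 0.0120. Grin3b ran from 0.0433 to 0.0874 (adjusted p = 0.620), with means of 0.0564 in GCL to 0.0669 in PC. Over the 55 pairs limma called 0 for Grin1 (0 at an unadjusted p under 0.05) and 0 for Grin3b (1 unadjusted).

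Grin3a had region means of 0.0530 in SN to 0.0783 in PC (limma F-test, adjusted p = 0.163). PC was called above the mean of the other regions by 0.38 ± 0.12 on the log2 scale (SE, adjusted p = 0.0123). In PC the F2 and M3 samples had a mean of 0.0926 and F1 and F4 a mean of 0.0639. The same 2 PC samples had higher means than F1 and F4 at all 7 subunit CpGs, and theirs were the arrays with raised first quartiles. Without both, Grin3a in PC stood at 0.09 (adjusted p = 0.829), and its 2 called pairs, PC against GP and SN, were not called (the smaller adjusted p was 0.386). The median difference of all CpGs in PC was 0.20, and relative to it Grin3a stood at 0.17. Without PC F4, Grin3a passed the F-test (0.0347).

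**Figure D4:**
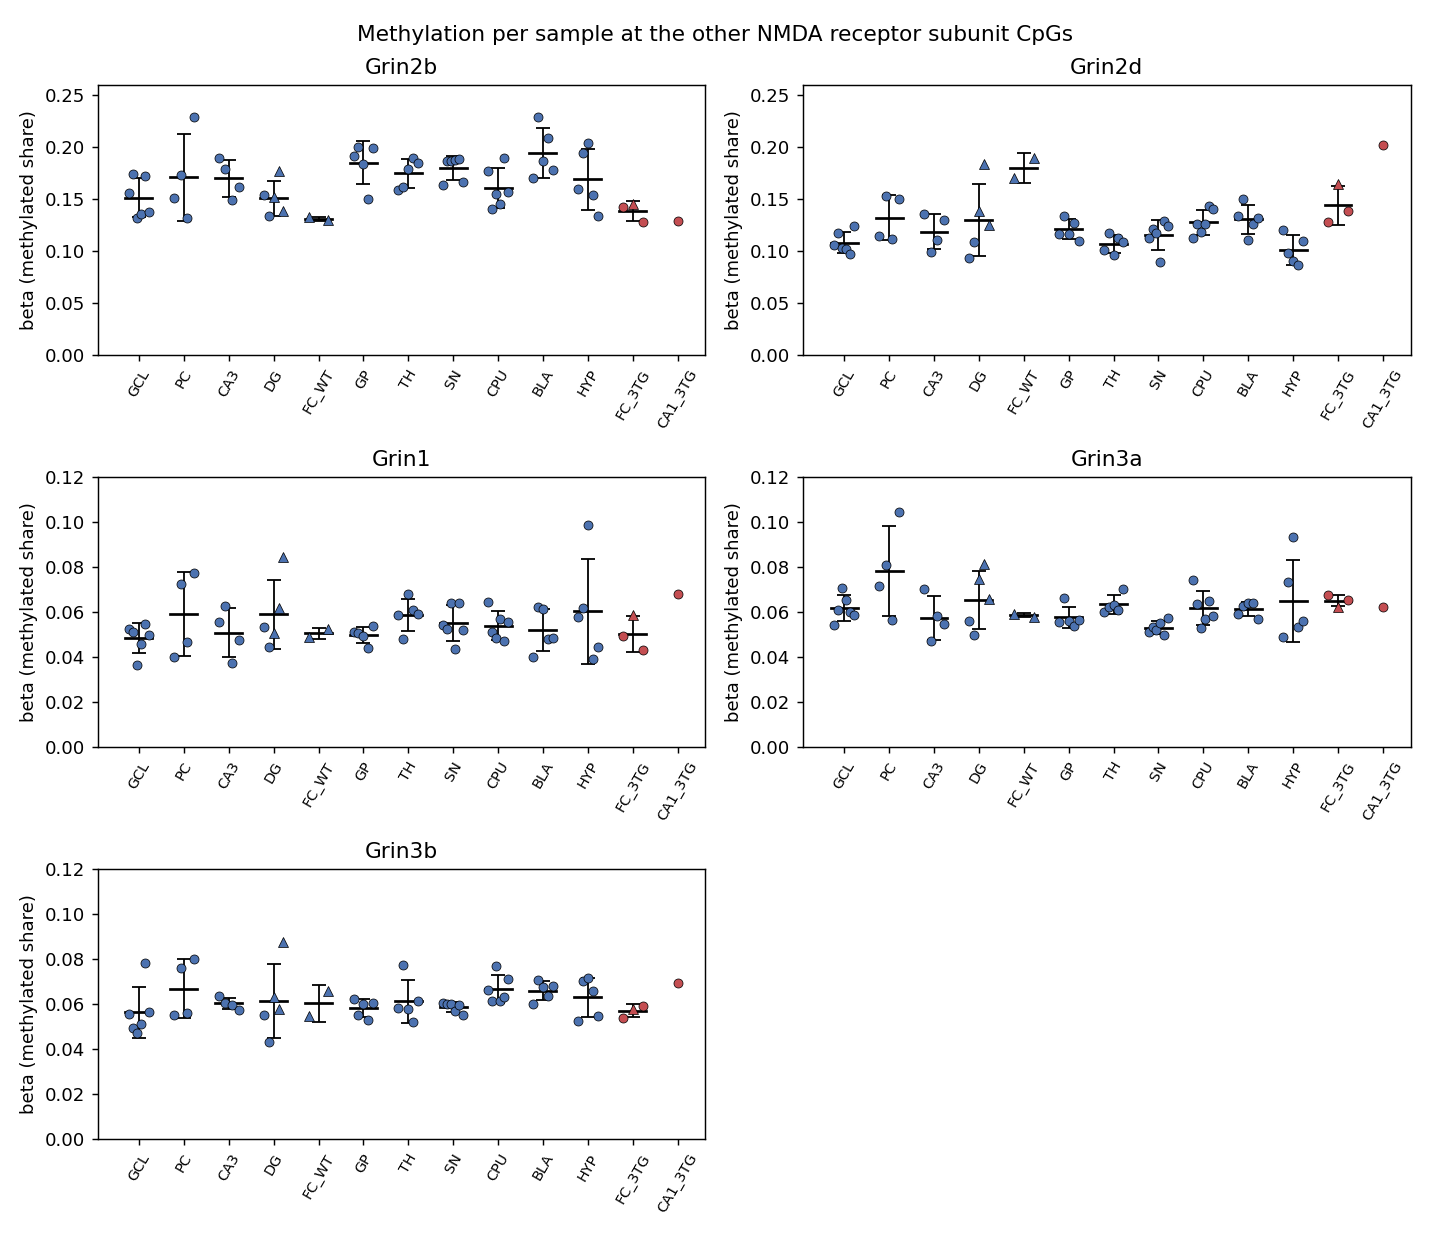
Beta values of every sample at Grin1, Grin2b, Grin2d, Grin3a and Grin3b by region, with 1 point per sample, bars at the mean and error bars of 1 SD. Triangles are samples whose titles begin with WT or 3TG and red marks mice labelled 3TG. Grin1, Grin3a and Grin3b stay below 0.105 in every sample. Among the 11 regions, without the 3TG samples, FC_WT has the highest mean at Grin2d (0.180) and the lowest at Grin2b (0.131).

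A beta value of a dissected region averages over its cells, so a different mix of cell types and a different level within a cell type cannot be told apart. Marker CpGs were called at 2 of 2 astrocyte genes, 2 of 7 oligodendrocyte and myelin genes, 0 of 2 neuronal genes (1 at an unadjusted p under 0.05) and 0 of 1 microglia and immune gene (0 unadjusted) by limma's F-test, which called 44.5% of all CpGs. Region means of Gfap, the astrocyte intermediate filament, ran from 0.469 in DG to 0.805 in TH, and those of Gm98, also named Myrf, a regulator of myelin genes, from 0.319 in PC to 0.503 in HYP. Over the 11 region means Grin2c correlated with Gfap at r = 0.784 and with Gm98 at r = 0.783, but with Slc1a3 at 0.135, Gal3st1 at -0.0836, Cnp at -0.355, Mbp at -0.429 and Olig2 at -0.622, so markers of the same cell type ran in different directions. Gal3st1, an enzyme of sulphatide synthesis, ran from 0.110 in FC_WT to 0.223 in PC and Slc1a3, the astrocytic glutamate transporter, from 0.145 in FC_WT to 0.241 in PC, and Grin2a correlated with them at r = 0.641 and 0.681. The part of cell composition in the subunit results was not tested.

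The CpGs whose region means were most like those of the called subunits, by Pearson's r over 11 regions, were Sorbs3 (0.959), Calcr (0.945) and Col11a2 (0.940) for Grin2c and P2ry10 (0.891), Ednra (0.754) and Trhr (0.751) for Grin2a. Sorbs3 ran from 0.240 in GCL to 0.576 in CPU and P2ry10 from 0.417 in DG to 0.542 in HYP. For Grin2b they were P2rx4 (0.892), Dek (0.867) and Kcnd2 (0.839), each lowest in FC_WT, and for Grin2d they included Chrm1 (0.846) and Cntn5 (0.811), both highest in FC_WT. Neither Chrm1 nor Cntn5 was called by limma's F-test over the regions (adjusted p = 0.268 and 0.568). All of these CpGs were picked as the highest of 381 correlations each and are a description.

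Other genes of glutamate signalling on the array were called at 8 of 26 CpGs by the same F-test, below the 44.5% of all CpGs, and their median span of region means was 0.0323. Of the other ionotropic receptor genes 4 of 11 were called, the widest being Grik1, a kainate receptor subunit, from 0.0492 in FC_WT to 0.160 in PC (limma adjusted p = 0.000531). Of the metabotropic receptors 3 of 7 were called, the widest being Grm2, a presynaptic autoreceptor, from 0.103 in DG to 0.350 in CPU (1.78e-14). Slc1a3 was the 1 call among 2 transporters and enzymes. Scaffold and signalling partners of the NMDA receptor had 0 of 6 calls by limma (0 at an unadjusted p under 0.05).

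In frontal cortex, mice labelled 3TG were compared with those labelled WT, which also differ in genetic background. Grin2a read 0.109, 0.124 and 0.107 in 3TG and 0.135 and 0.128 in WT, so that the groups did not overlap. Grin2c read 0.364, 0.270 and 0.396 in 3TG and 0.295 and 0.310 in WT, and Grin2d 0.128, 0.165 and 0.139 in 3TG and 0.170 and 0.190 in WT. At Grin2c the groups overlapped, and at Grin2d all 3TG samples lay below both WT samples. The 3TG values are in the order F10, 2_a and F12. Samples F10 and F12 are titled by region and code, whereas the title of 2_a begins with 3TG and both WT titles with WT. At Grin2c F10 and F12 lay above both WT samples and 2_a below them. The part of the kind of title in this comparison was not tested. The difference of 3TG minus WT on the log2 scale was -0.25 for Grin2a (95% interval -1.01 to 0.52), 0.26 for Grin2c (-0.44 to 0.96) and -0.39 for Grin2d (-0.81 to 0.03, limma adjusted p = 0.865). Limma called 0 of the 7 CpGs (0 at an unadjusted p under 0.05), against 1.31% of all CpGs, and a difference of -1 on this scale at Grin2a lies within the interval. The 3TG sample of CA1, which has no wild-type CA1 beside it, read 0.0887 at Grin2a, 0.354 at Grin2c and 0.202 at Grin2d.

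Replicate codes carry the letter F or M, which the labels do not explain. Over 28 F-coded and 23 M-coded samples with region as a covariate, limma called 0 of 7 subunit CpGs (1 at an unadjusted p under 0.05), against 3.93% of all CpGs. That 1 was Grin2a, lower in F by -0.27 on the log2 scale (95% interval -0.51 to -0.03, limma adjusted p = 0.426), with F higher in 4 of 10 regions that held both letters. At Grin2c the difference was -0.16 (-0.38 to 0.06), with F higher in 2 of 10. Codes recur across regions, and same-coded samples of different regions deviated together at a median r of 0.332. The random block for the code had an estimated correlation of 5.45e-05, so the fit treated the samples as nearly independent. These intervals may therefore be too narrow and the p-values too small. F-coded samples also include DG F7 to F9, which read 0.116 to 0.126 at Grin2a.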

How the data were processed

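Genomic DNA was phenol-extracted, per the labels' protocols, and hybridised after bisulphite conversion. Beta values, each a fraction between 0 and 1, were used as the authors deposited them for 382 CpGs on 58 arrays. The sources used here name no scanner software, normalization, filter or genome build. Values lay between 0.0196 and 0.986. The arrays M4_a and M4_b of CPU M4 were averaged as 1 replicate, and Grin2a read 0.643 and 0.532 on them and Grin2c 0.661 and 0.560.

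Beta was limited to 0.01 to 0.99 and tested as log2(beta / (1 - beta)) with limma 3.58.1 (R 4.3.3), using eBayes and Benjamini-Hochberg adjustment over all 382 CpGs, in each region, or jointly over 21010 CpG and pair combinations. The 3TG fit covered all 13 groups. The code was a random block in the letter comparison (estimated correlation 5.45e-05). The F-test and the contrast of a region with the others were tested on simulated independent samples with shifts in GCL alone. The pair, 3TG and letter comparisons were not tested in this way. Named genes were every subunit CpG, the 3 most alike per called subunit, the 2 widest calls per glutamate list and every marker called. Some genes that this rule names are not reported here. The members and lists were chosen with earlier results of these data known. Figures were drawn with matplotlib 3.10.9 in Python 3.11.15. Alternatives changed the scale, limits, normalization, filters, variance model, blocks, covariates and samples. Leaving out PC F2 and M3 was chosen after seeing the data.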

Additional observations from a re-analysis of the deposited data

Results flagged for a closer look

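In 4 of 70 groups of 4 to 6 samples, 1 subunit value lay far from the rest of its group by Dixon's test at the 95% level, which chance does in about 1 group in 20. Grin2a in HYP M1 read 0.602, and the other HYP samples 0.413 to 0.465. Grin2c in GP M3 read 0.255, and the other GP samples 0.395 to 0.442. GP M3 also read 0.491 at Cacna1d and 0.602 at Ush1g, where the other GP samples ran from 0.716 to 0.816 and from 0.425 to 0.479, and its array correlated best with a GCL sample. Grin3a in GP F1 read 0.0660, and the other GP samples 0.0538 to 0.0564. Grin3b in GCL M3 read 0.0783, and the other GCL samples 0.0472 to 0.0566.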

How the results depend on the processing

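The count of subunit CpGs called by the F-test, 4 in the report, fell to 2 without FC_WT, with the code letter as a covariate (also without FC_WT), and where region means had to lie at least 0.1 or 0.2 apart. Of the 385 pairs, 70 involve FC_WT, and 26 of the 85 calls were among them. The calls numbered 55 without FC_WT and again 55 with the letter as a covariate. They numbered 41 with the replicate code as a fixed term of the model, called the replicate block here. The letter and code fits also left out FC_WT, and neither used the random block of the letter comparison. Same-coded samples of different regions deviated together at a median r of 0.332 (149 pairs, -0.549 to 0.881), samples of different codes at -0.0627, and 18 of 47 samples matched their own code best. This hints that codes are shared, but the labels do not say so and not every same-coded pair deviated together. The codes were therefore not taken as pairs in the main region tests. With the replicate block Grin2b lost its F-test call (adjusted p = 0.277) and Grin2d its HYP call (0.36). The other glutamate CpGs went from 8 called to 5 with the filter on mean beta and 3 with the replicate block. The 15 calls of a region against the others stayed between 10 and 16 over 14 alternatives and between 13 and 16 with each sample left out. The counts for 3TG and for the letters stayed at 0. Of 2768 recomputed values of 40 single results, 36 lost a call, 1 gained a call and 10 changed sign, none of the last from a called value. Those were Grin1 for 3TG (0.048 with limits of 0.05 and 0.95, and -0.14 to 0.096 with a sample left out), Grin3b for 3TG (-0.23 to 0.069 with a sample left out), Grin2c for F minus M (0.068 after quantile normalization) and Grin2d for F minus M (-0.012 without DG F7 to F9 or with codes F1 to F4 and M1 to M4, and -0.0027 to 0.042 with a sample left out). Grin2a in DG was -0.799 with the replicate block. In that fit the codes F7, F8, F9 and M2 occurred in DG only, so its DG difference rested on DG F3 alone. The value therefore does not show that the DG call holds with the replicate block. The Grin2b difference in FC_WT lost its call on untransformed beta (adjusted p = 0.0505), after quantile normalization (-0.20) and after centring each array (-0.14), and that of Grin3a in PC after quantile normalization (0.08), after centring (0.22) and without PC F2 (adjusted p = 0.0551) or M3 (0.282). The causes were not tested. Signal over background was not used here, and the FC_WT results rest on 2 samples.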
